A study of Mus musculus with 8 samples.

Results

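The nuclear-encoded subunits of the respiratory chain and ATP synthase were examined in SV-LECs, a mouse lymphatic endothelial line, with and without TGFβ1. Members were taken by gene symbol from the count table, as the Nduf, Sdh, Uqcr, Cox4 to Cox8 and Atp5 series, and 89 of its 55471 entries matched. Of these, 8 are annotated pseudogenes and 1 is a second entry for Atp5o without a count, so that 80 subunit genes remained: 35 of complex I, 4 of complex II, 8 of complex III, 16 of complex IV and 17 of complex V. 77 of the 80 had enough counts to be tested among 13818 genes in all. The 3 others, Cox7b2, Cox8b and Cox8c, had 0 counts in all 8 libraries. The symbol pattern leaves out Ndufab1, Cox4i1, Cyc1 and a few further subunits, which are described separately, and Ndufb4 was not analysed here.

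RNA from 4 untreated samples (svLEC_ctrl) and 4 samples given 10 ng/ml TGFβ1 for 72 h (svLEC_tgfb1) was sequenced as polyadenylated RNA. Both groups are the same SV40-immortalized line, derived from mesenteric adventitial tissue and grown in high-glucose medium with serum. The methods of the study call the 4 samples of a group technical replicates, so p-values measure the spread between samples of 1 line and may be technical. Libraries held between 18952504 and 26386941 counts.

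The lymphatic endothelial label was checked against marker genes. Of 6 lymphatic markers, Pdpn and Flt4 were tested, 1 being higher and 1 lower, whereas Prox1, Reln, Lyve1 and Ccl21a had at most 3 counts in any library. The 6 together summed to 344 to 381 CPM (counts per 1e+06 counts) in untreated and 337 to 348 CPM in treated libraries. Of 8 general endothelial markers, Pecam1, Cdh5, Tie1, Erg and Cldn5 had at most 5 counts in any library. The other 3, Kdr, Esam and Tek, were tested and Kdr and Esam were higher, and the 8 together summed to 14.02 to 16.1 CPM in untreated and 25.9 to 28.0 CPM in treated libraries. Among 6 fibroblast markers 4 were tested, of which Col1a1 was higher and Pdgfra and Dcn were lower (median -0.78). Their summed level was 7977 to 10317 CPM in untreated and 10372 to 11804 CPM in TGFβ1-treated libraries, carried mostly by Col1a1 and Col1a2. The summed level of 6 mural and smooth muscle markers was 310 to 339 CPM in untreated and 1049 to 1129 CPM in treated libraries, with 5 of 6 tested and all 5 higher, and Rgs5 at 0 in untreated libraries. 6 leukocyte markers summed to 6.02 to 7.86 CPM and 15.3 to 17.6 CPM, 1 of them (Cd68) tested and higher, with at most 1 count of Ptprc in a library. 6 epithelial markers summed to 34.2 to 40.7 CPM and 38.2 to 45.2 CPM, 3 of them tested and 2 higher, with at most 7 counts of Epcam. These marker calls stand beside 37.6% of all genes tested being higher and 38.0% lower at an FDR under 0.05. The part of these marker changes in the results below was not tested, and in bulk RNA a change in the mix of cells and a change in RNA per cell cannot be told apart.

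The respiratory chain moves electrons from NADH and succinate to oxygen in the inner mitochondrial membrane. Complex I accepts electrons from NADH and complex II from succinate, both pass them to ubiquinone, complex III passes them on to cytochrome c, and complex IV reduces oxygen. Complexes I, III and IV pump protons, and ATP synthase (complex V) uses the gradient to make ATP. Most subunits are encoded in the nucleus, a few core subunits in mitochondrial DNA, and nuclear respiratory factor 1, factors of the ETS family and the estrogen-related receptors are known regulators of the nuclear genes.

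Promoters of the members were searched for letters known from such factors, because the nuclear subunits are known to share them. A RefSeq sequence (GRCm38.p6) of 250 bases before and 50 after the start was matched for 65 of the 77 genes tested. The motif of nuclear respiratory factor 1 (NRF1), searched on both strands as a pair of GCGC separated by A and any base, stood in 16 of the 65 (24.6%), in 11.4% of the promoters of all genes tested and in 5.19% of all promoters. The letters CCGGAAG of the ETS family stood in 26.2% of the members and 19.9% of genes tested, AAGATGGC of YY1 in 15.4% and 5.25%, and CAAGGTCA of the estrogen-related receptors in 6.15% and 1.26%. The 4 motifs share no stretch by which a match to one is a match to another, and a match is a description of letters and not of binding.

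Windows of 30 bases around the NRF1 motif, or its reverse complement, are shown for members that passed the test after TGFβ1, with the match in capitals and the strand of the gene written 5′ to 3′.
Sdha, chr13:74350319-74350348, minus strand, lower after TGFβ1: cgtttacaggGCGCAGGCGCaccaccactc
Sdha, chr13:74350276-74350305, minus strand: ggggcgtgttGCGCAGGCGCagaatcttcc
Sdha, chr13:74350231-74350260, minus strand: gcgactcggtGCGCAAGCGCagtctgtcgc
Sdhd, chr9:50603909-50603938, minus strand, lower: tcgctggggtGCGCACGCGCggtggcagcg
Ndufa5, chr6:24527697-24527726, minus strand, lower: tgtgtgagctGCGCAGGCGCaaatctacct
Ndufs6, chr13:73328479-73328508, minus strand, lower: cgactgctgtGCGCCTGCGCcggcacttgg
Atp5c1, chr2:10080430-10080459, minus strand, lower: ctgagctcccGCGCACGCGCactgagtccc
Atp5g2, chr15:102671070-102671099, minus strand, lower: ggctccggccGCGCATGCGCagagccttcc
Ndufa8, chr2:36049349-36049378, minus strand, higher: ctagagcagtGCGCTTGCGCgtcgctggag
Ndufa11, chr17:56717692-56717721, plus strand, higher: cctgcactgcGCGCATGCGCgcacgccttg
Atp5k, chr5:108434430-108434459, minus strand, higher: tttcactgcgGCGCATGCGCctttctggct
Sdha carries 3 copies within 98 bases before its start. Counting the bases after the start as well, the NRF1 motif stood in 8 of 22 promoters of members that fell and in 4 of 21 of members that rose. It thus occurs beside both directions of change. The ETS letters stood in 3 of the 22 and 9 of the 21, those of YY1 in 5 and 3, and those of the estrogen-related receptors in 1 and 1. These differences in share were not tested.

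After TGFβ1, 22 of the 77 subunit genes were higher and 28 lower at an FDR under 0.05 by edgeR's likelihood ratio test, and 27 did not pass. The called share was 64.9%, against 75.6% of all genes tested (37.6% higher and 38.0% lower). With libraries scaled by total counts alone, the split was 15 higher and 36 lower, while 33.5% of all genes were then higher and 42.7% lower. Changes of the subunit genes were small, with a median size of 0.18 on the log2 scale against 0.39 over all genes tested. Past a fold of 1.2, tested with edgeR's glmTreat, were 9 higher and 11 lower subunit genes, 20 of 77, against 49.7% of all genes tested (25.9% higher and 23.8% lower). The untreated and treated libraries did not overlap for 41 of the 77, and for 69.8% of all genes tested. The median log2 fold change was -0.04, beside -0.01 over all genes, and it turned to 0.03 when trends with GC content and transcript length were removed.

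**Figure D1:**
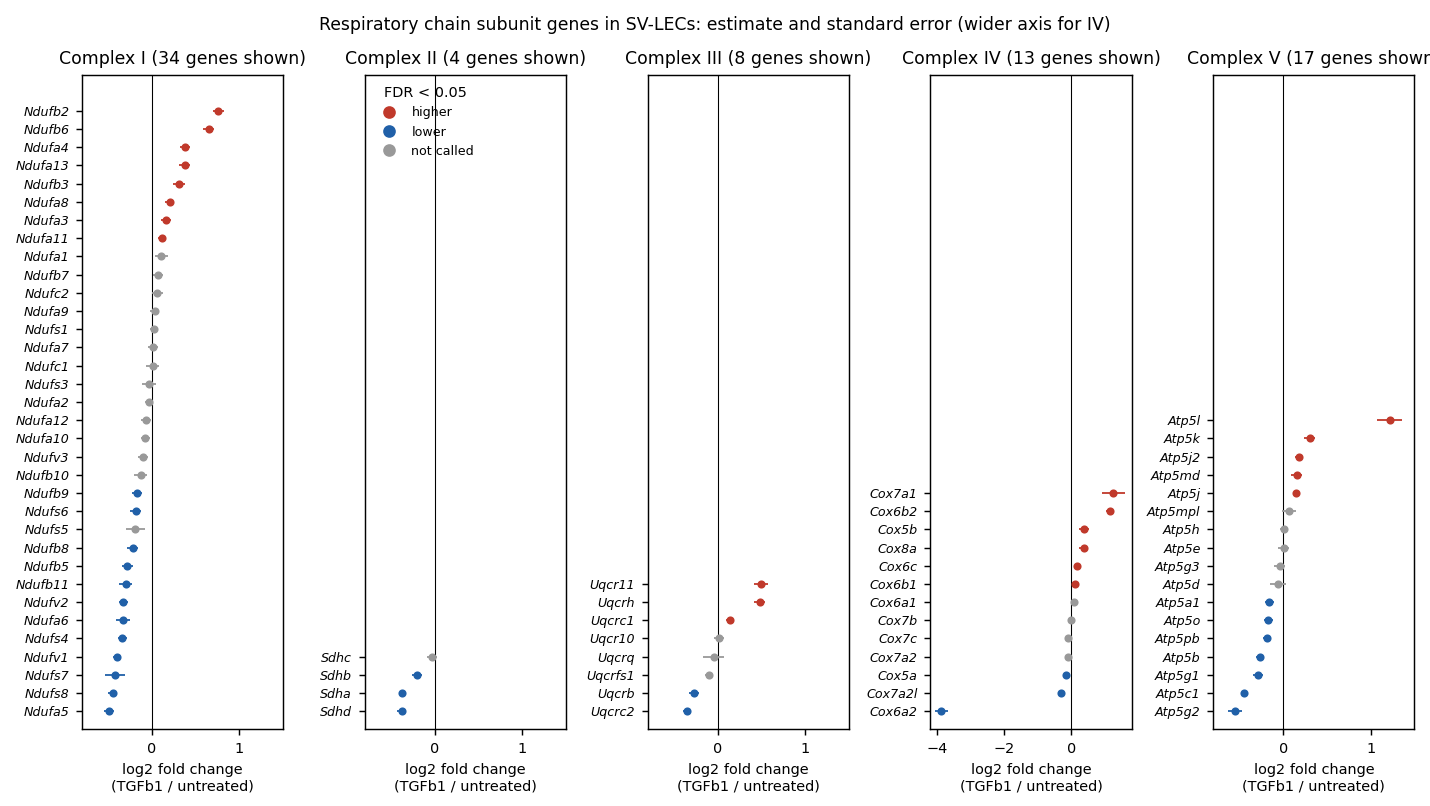
Log2 fold change (TGFβ1-treated over untreated, horizontal axis) with its standard error for 76 of the 77 subunit genes tested, 1 panel for each complex, coloured by the call at an FDR under 0.05. Members of each complex other than complex II lie on both sides of 0, and Cox6a2 at -3.88 is the lowest.

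**Figure D2:**
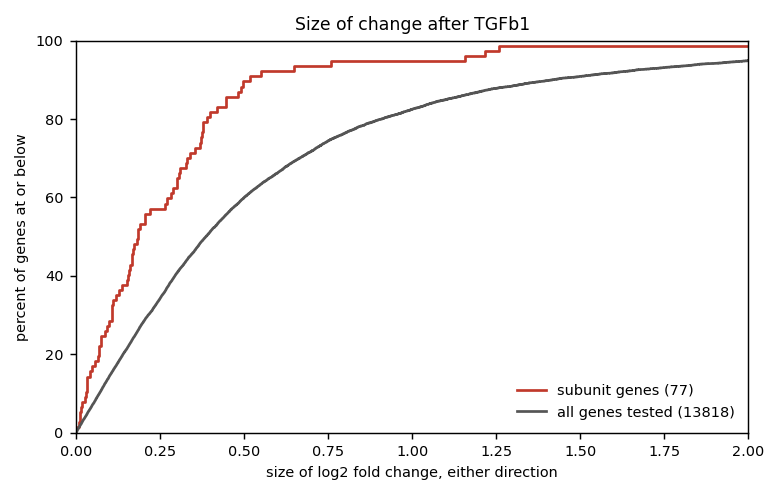
Percent of genes (vertical axis) whose log2 fold change, in either direction, is at or below the size on the horizontal axis, for the 77 subunit genes and the 13818 genes tested. 10.4% of the subunit genes and 40.0% of all genes exceed 0.5.

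The size of change was also compared among well counted genes. Of the subunit genes, 58 had a mean of at least 36.7 CPM, their own lower quartile, and these had a median size of 0.17 with 13 (22.4%) past a fold of 1.2. Among the 6186 genes tested at or above that level, the median size was 0.32 and 47.5% were past a fold of 1.2. A log2 fold change of more than 0.5 in either direction was found for 8 of the 77 subunit genes (10.4%), and one of more than 1 for 4, which were Cox6a2, Cox7a1, Cox6b2 and Atp5l. All 4 had a mean below 20 CPM in both groups. Standard errors of the subunit genes had the same order as many of these changes, from 0.04 to 0.34.

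In complex I, 8 of 35 genes rose and 13 fell. That is 60.0% called, against 75.6% of all genes tested (37.6% higher and 38.0% lower). Counts differed between core and accessory subunits. Of the 7 nuclear core subunits, which carry the flavin and iron-sulfur clusters or surround the ubiquinone site, 5 fell and none rose (median -0.40), whereas of 28 accessory subunits 8 rose and 8 fell (median -0.01). The called share was 71.4% for the core and 57.1% for the accessory subunits, and the difference between them was not tested as such.

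Ndufv1, which binds NADH and the flavin, was at 160, 154, 153 and 156 CPM without and at 118, 115, 116 and 123 CPM with TGFβ1. Every treated library lay below every untreated library, and the change was -0.40 ± 0.04 (SE, n = 4 and 4, adjusted p = 6.47e-21 by edgeR's likelihood ratio test). Ndufs8, an iron-sulfur subunit, went from 58.9 to 62.8 CPM down to 42.9 to 47.7 CPM (-0.45 ± 0.05), and Ndufv2, another, from 77.3 to 87.0 down to 64.1 to 67.7 CPM (-0.33 ± 0.05). In all 3 the groups did not overlap, and Ndufv2 was at -0.20 with GC content and length trends removed. Ndufs7, which holds the cluster next to ubiquinone, fell by 0.42 ± 0.12 on the log2 scale with overlapping groups, since untreated libraries ran from 34.5 to 49.6 CPM and treated from 26.9 to 36.1 CPM. Ndufs1 (0.02 ± 0.04) and Ndufs3 (-0.03 ± 0.08) did not pass the test.

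The accessory subunit with the largest rise was Ndufb2 (ENSMUSG00000002416, chr6:39592574-39603382), a small protein of the membrane arm. It was at 16.0, 15.5, 15.2 and 16.6 CPM in untreated and at 26.1, 27.7, 26.4 and 26.6 CPM in treated libraries. The groups were far apart, and the change was 0.76 ± 0.06 (adjusted p = 2.64e-34, edgeR's likelihood ratio test). Ndufb6, also of the membrane arm, was at 44.5 to 50.2 CPM and 69.0 to 80.9 CPM (0.65 ± 0.06), but 27.8% of its stretches overlap Smim27 on the opposite strand. Ndufa13 rose from 111 to 126 CPM to 142 to 167 CPM (0.37 ± 0.06), with 25.6% of its stretches opposite Tssk6. Ndufa4, whose product is now assigned to complex IV, is counted here with complex I by its symbol. It rose from 111 to 128 CPM to 151 to 166 CPM (0.38 ± 0.05).

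Among accessory subunits that fell, Ndufa5 of the matrix arm was at 44.1, 43.6, 47.7 and 45.3 CPM in untreated and at 32.1, 32.5, 31.2 and 32.8 CPM in treated libraries. All treated libraries were lower, with a change of -0.49 ± 0.05 (adjusted p = 1.69e-19, edgeR's likelihood ratio test). Ndufs4, known to stabilise the NADH-oxidising module, went from 81.8 to 88.0 CPM down to 64.6 to 71.8 CPM (-0.34 ± 0.05), or -0.22 with GC content and length trends removed. Ndufa6, Ndufb11, Ndufb5, Ndufb8, Ndufs6 and Ndufb9 fell by 0.17 to 0.33 on the log2 scale, none of them past a fold of 1.2, and the groups of Ndufb11 overlapped. The 12 accessory genes that did not pass the test lay between -0.19 (Ndufs5) and 0.11 (Ndufa1).

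**Figure D3:**
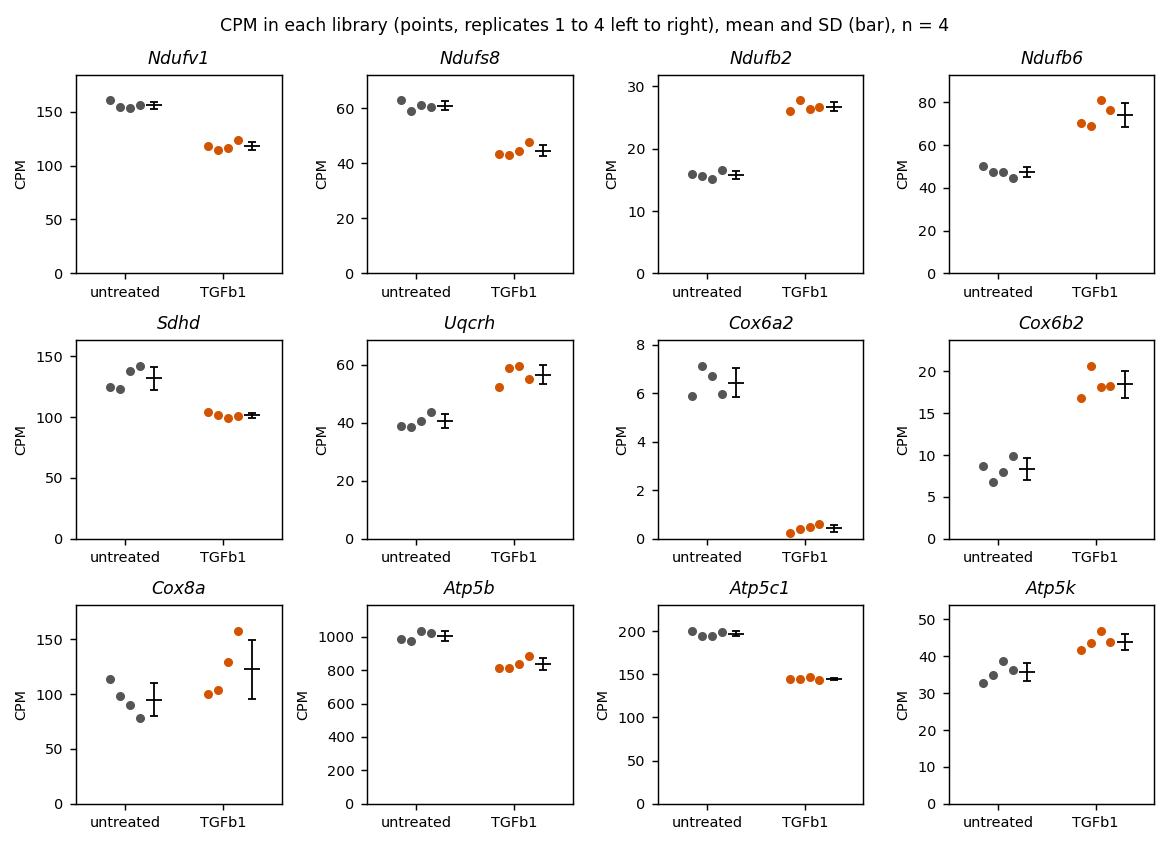
CPM (vertical axis from 0) in each of the 8 libraries for 12 subunit genes, with the mean and SD of 4 libraries beside the points. The groups do not overlap for 11 of the 12, whereas for Cox8a treated replicates 1 and 2 lie within the untreated range of 77.9 to 114 CPM.

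Complex II, succinate dehydrogenase, is encoded by 4 genes, of which 3 fell and 1 did not pass the test (median -0.29). The called share of 75.0% was near the 75.6% of all genes tested, of which 38.0% were lower. Sdha (ENSMUSG00000021577, chr13:74322254-74350280), the flavoprotein, was at 262, 268, 275 and 273 CPM in untreated and at 201, 216, 209 and 207 CPM in treated libraries. No treated library reached the untreated range, and the change was -0.37 ± 0.04 (adjusted p = 2.94e-20, edgeR's likelihood ratio test). Sdhd, a membrane anchor, was at 125, 123, 138 and 142 CPM and then at 104, 102, 99.2 and 101 CPM, a change of -0.38 ± 0.05 with no overlap. Sdhb, the iron-sulfur subunit, fell by 0.20 ± 0.06 on the log2 scale, with groups of 64.5 to 76.1 and 61.9 to 63.7 CPM. Sdhc, the other anchor, was at 77.4 to 89.3 and 75.0 to 82.3 CPM (-0.03 ± 0.06). Summed over the 4 genes, complex II was at 556 ± 15.6 CPM in untreated and 453 ± 6.56 CPM in treated libraries (SD, n = 4 each).

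In complex III, 3 of 8 genes rose and 2 fell (62.5% called, against 75.6% of all genes tested). Uqcrh (ENSMUSG00000063882, chr4:116066965-116075071), the hinge protein by which cytochrome c1 docks cytochrome c, was at 38.9, 38.5, 40.7 and 43.8 CPM in untreated and at 52.4, 58.8, 59.6 and 55.2 CPM in treated libraries. The groups did not overlap, and the change was 0.48 ± 0.06 (adjusted p = 6.04e-15, edgeR's likelihood ratio test). Uqcr11, a small subunit, went from 24.7 to 26.6 CPM up to 30.9 to 39.5 CPM (0.50 ± 0.08). The 2 core proteins of complex III moved apart. Uqcrc1 was at 150 to 161 CPM and 160 to 176 CPM (0.14 ± 0.05, overlapping groups, a call lost at 0.07 with total counts alone), and Uqcrc2 was at 110 to 118 CPM and 88.1 to 92.3 CPM (-0.35 ± 0.04), where 16.5% of the stretches of Uqcrc2 overlap Pdzd9 on the opposite strand. Uqcrb fell by 0.27 ± 0.06 on the log2 scale, with 16.7% of its stretches found in other genes. Its change was -0.11 with GC content and length trends removed. The call was lost only when the replicate block was combined with that removal (adjusted p = 0.0811, edgeR's likelihood ratio test). Uqcrfs1, the Rieske iron-sulfur protein, was at 81.3 to 86.7 and 73.2 to 82.3 CPM (-0.10 ± 0.05) and did not pass the test, and neither did Uqcr10 and Uqcrq.

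Of the 13 complex IV genes tested, 6 rose and 3 fell (69.2% called, against 75.6% of all genes tested). The largest changes were in isoforms known from muscle or testis, which were present at low levels here. Cox6a2 (ENSMUSG00000030785, chr7:128205435-128206387), the heart and skeletal muscle isoform of subunit 6a, was at 5.88, 7.14, 6.72 and 5.98 CPM in untreated and at 0.216, 0.389, 0.492 and 0.582 CPM in treated libraries. Counts fell from between 118 and 190 to between 4 and 15, above the floor of 3 counts, and the gene was 14.7-fold lower (log2 fold change -3.88 ± 0.19, adjusted p = 2.06e-88, edgeR's likelihood ratio test). Its general counterpart Cox6a1 was at 141 to 187 CPM and 148 to 201 CPM (0.09 ± 0.10) and did not pass the test.

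Cox6b2 (ENSMUSG00000051811, chr7:4751792-4753094), the testis isoform of subunit 6b, moved the other way. It was at 8.62, 6.80, 7.99 and 9.89 CPM in untreated and at 16.8, 20.7, 18.1 and 18.2 CPM in treated libraries, with no overlap and a change of 1.16 ± 0.11 (adjusted p = 1.48e-25, edgeR's likelihood ratio test). Cox7a1, a muscle isoform, was at 0.113 to 0.355 CPM and 0.590 to 0.779 CPM (1.26 ± 0.34), which is only 3 to 8 and 11 to 16 counts in a library.

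Relative abundance within an isoform pair was compared as CPM per kilobase of transcript, each isoform as a share of its pair. Cox6a2 made up 3.26% ± 0.471 of the Cox6a1 and Cox6a2 total in untreated and 0.201% ± 0.0576 in treated libraries. Cox6b2 made up 9.79% ± 1.42 and 18.2% ± 0.642 of the Cox6b pair, and Cox7a1 0.448% ± 0.171 and 1.13% ± 0.154 of the Cox7a1 and Cox7a2 total (SD, n = 4 each). Ndufa4l2, a paralog of Ndufa4 outside the symbol pattern, made up 0.288% ± 0.0391 and 1.196% ± 0.170 of the Ndufa4 pair. The 4 shares did not overlap between groups, and they are given as a description, without a test.

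The other complex IV genes had smaller changes than Cox6a2, Cox6b2 and Cox7a1. Cox5b was at 52.9, 41.0, 37.8 and 33.9 CPM in untreated and at 44.8, 44.9, 61.1 and 65.7 CPM in treated libraries (0.39 ± 0.14), and Cox8a was at 114, 97.8, 89.8 and 77.9 CPM and at 100, 103, 129 and 158 CPM (0.37 ± 0.13). Both passed the test with overlapping groups, and both calls were lost without treated replicate 4 (0.28 and 0.22) and in DESeq2. Cox6b1 and Cox6c rose by 0.11 and 0.17 on the log2 scale, both calls being lost with total counts alone (0.04 and 0.10), and that of Cox6b1 also when any library but untreated replicate 3 or treated replicate 1 was left out. Without treated replicate 4, complex IV held 3 higher genes in place of 6. Cox7a2l, which joins complexes III and IV into supercomplexes, was at 61.1 to 63.0 CPM and 48.6 to 52.6 CPM (-0.31 ± 0.05), with no overlap. Cox5a fell by 0.16 ± 0.06 on the log2 scale with overlapping groups, and its call was lost without treated replicate 1 (-0.11) and with GC content and length trends removed (-0.06). Cox7a2, Cox7b and Cox7c did not pass the test.

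In ATP synthase, 5 of 17 genes rose and 7 fell (70.6% called, against 75.6% of all genes tested). Counts differed between the parts of the enzyme. Of the 5 genes of the F1 head and central stalk, 3 fell and none rose, while of the 5 small accessory subunits in the membrane 4 rose and none fell. Of the 3 c ring genes 2 fell, and the peripheral stalk held 1 higher and 2 lower of 4. The called share was 60.0% for F1, 66.7% for the c ring, 75.0% for the peripheral stalk and 80.0% for the membrane accessory subunits. The difference between these parts was not tested as such. Scaled by total counts alone, complex V had 3 higher genes. Atp5c1 (ENSMUSG00000025781, chr2:10056016-10080510), the γ subunit of the central stalk, was at 200, 195, 195 and 199 CPM in untreated and at 145, 145, 147 and 144 CPM in treated libraries. Replicates differed by a few CPM only, and the change was -0.44 ± 0.04 (adjusted p = 2.09e-32, edgeR's likelihood ratio test).

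Atp5b, the catalytic β subunit and the most abundant member, was at 990, 973, 1036 and 1023 CPM without and at 811, 813, 839 and 884 CPM with TGFβ1, which gave -0.26 ± 0.04 with no overlap. Atp5a1, the α subunit, was at 499 to 576 CPM and 468 to 482 CPM (-0.16 ± 0.05). Atp5d (-0.05 ± 0.09) and Atp5e (0.01 ± 0.06), the δ and ε subunits, did not pass the test. The 3 c ring genes, which encode the same mature protein, were at 16.6 to 18.6 and 11.3 to 13.2 CPM for Atp5g2 (-0.55 ± 0.08), at 35.5 to 39.4 and 30.2 to 31.6 CPM for Atp5g1 (-0.29 ± 0.05) and at 110 to 134 and 110 to 126 CPM for Atp5g3 (-0.04 ± 0.06). Atp5g3 did not pass the test, and 35.8% of the stretches of Atp5g2 occur in other genes, mainly the pseudogene Gm10175.

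Of the peripheral stalk, Atp5pb and Atp5o fell by 0.19 and 0.17 on the log2 scale, with 34.2% of the stretches of Atp5o found in other genes on either strand. Atp5pb was at -0.12 with GC content and length trends removed. Atp5j rose by 0.15, a call lost with total counts alone (0.08), and Atp5h stood at 0.01. Among the membrane accessory subunits, Atp5k (subunit e) was at 32.8, 34.9, 38.7 and 36.4 CPM in untreated and at 41.6, 43.5, 46.9 and 43.7 CPM in treated libraries, a rise of 0.30 ± 0.06 with no overlap. Atp5j2 (subunit f) rose by 0.18 ± 0.05 and Atp5md by 0.15 ± 0.07, the latter with overlapping groups. With total counts alone these were 0.12 and 0.09, and the call of Atp5md was also lost without untreated replicate 1 or 2 or treated replicate 3 or 4. Atp5l (subunit g) rose by 1.22 ± 0.15, but at 1.66 to 2.03 and 4.04 to 5.25 CPM, while 6.16% of its stretches recur in other genes, among them 10 pseudogenes. How reads that match several places were counted is not given in the sources used here, so that its level is uncertain.

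Of all 77 genes, the 54 with under 5% of their stretches in other genes held 15 higher and 17 lower calls. That is 59.3% called, against 75.6% of all genes tested. The only annotated pseudogene with enough counts was Atp5pb-ps, at 9 to 22 counts in a library, and it did not pass the test (-0.29 ± 0.27). The other 7 had at most 7 counts in a library.

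Several subunit genes varied between libraries of the same group. Cox8a, Cox5b, Uqcrq, Ndufs7, Atp5d and Cox6a1 differed between the highest and the lowest library of a group by 1.25-fold to 1.57-fold. In untreated libraries these were highest in replicate 1 and lowest in replicate 4, and in treated libraries they were higher in replicates 3 and 4 than in replicates 1 and 2. The same libraries stood at the ends of the first component of the within-group deviations of all genes tested, which held 29.2% of that variance. With this component in the model, an alternative chosen after seeing the data, Cox8a changed by 0.37 ± 0.05, Cox5b by 0.39 ± 0.05 and Ndufs7 by -0.42 ± 0.05. The subunit genes then held 23 higher and 33 lower calls, beside a called share of 79.0% over all genes in that model. The component was taken from the within-group spread of these same counts. Smaller standard errors of genes that follow it were therefore built in and are no further support for their calls.

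Nuclear subunits outside the symbol pattern were examined from a list. Of 7, 6 were tested, 4 rose and 1 fell (83.3% called, against 75.6% of all genes tested). Cox4i1, the general isoform of subunit 4 and a regulatory subunit of complex IV, was at 329, 314, 326 and 335 CPM in untreated and at 438, 443, 453 and 438 CPM in treated libraries. The groups were well apart, with a change of 0.44 ± 0.04. Ndufab1, the mitochondrial acyl carrier protein, went from 19.8 to 20.99 CPM up to 30.2 to 32.4 CPM (0.64 ± 0.06), and Ndufa4l2 from 0.451 to 0.609 CPM up to 2.25 to 3.21 CPM (2.44 ± 0.22). Cyc1, cytochrome c1, fell by 0.18 ± 0.05 on the log2 scale, Ndufb1-ps rose by 0.18 ± 0.07, Cycs (0.09 ± 0.07) did not pass the test, and Cox4i2 had at most 1 count in a library.

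The 13 subunits encoded in mitochondrial DNA went in 1 direction where they could be tested. ND1, ND2, ND4, ND5, ND6, CYTB and COX1 were all higher after TGFβ1, with a median log2 fold change of 1.03. Stretches shared with other genes were not examined for the mitochondrial genes, and their levels are those in polyadenylated RNA. Of all genes tested, 37.6% were higher. CYTB, the cytochrome b of complex III, was at 720, 568, 533 and 785 CPM in untreated and at 1470, 1635, 1213 and 1296 CPM in treated libraries (1.11 ± 0.12). COX1, the catalytic subunit of complex IV, was at 1200, 974, 880 and 1295 CPM and at 1978, 2145, 1628 and 1737 CPM (0.78 ± 0.11). In both the lowest treated library was above the highest untreated library, while the groups of ND6 overlapped (0.83 ± 0.20). COX2, ATP8, ATP6, COX3, ND3 and ND4L are listed at 0 in all 8 libraries, and since these are genes that every respiring cell uses, the zeros are not read as absence.

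The summed level of the 7 mitochondrial genes with counts was 3025 ± 497 CPM in untreated and 6003 ± 708 CPM in treated libraries, and that of the nuclear subunit genes was 6924 ± 100.3 and 6471 ± 228 CPM (SD, n = 4 each). Per library, the mitochondrial sum was 0.360 to 0.516 of the nuclear sum without TGFβ1 and 0.795 to 1.08 of it with TGFβ1. By complex, the nuclear sums were 2179 ± 38.9 and 2080 ± 60.1 CPM for complex I, 641 ± 14.4 and 640.0 ± 32.0 CPM for complex III, 822 ± 29.99 and 855 ± 70.8 CPM for complex IV and 2726 ± 61.4 and 2443 ± 72.3 CPM for complex V. Sums of complexes II and V did not overlap between the groups, whereas those of complexes I, III and IV did. The nuclear sums cover the genes of the symbol pattern only. That of complex IV leaves out Cox4i1, which rose with groups well apart, and that of complex I includes Ndufa4. The overlap for complex IV therefore holds for the genes of the pattern and not for the whole complex. Scaled by total counts alone, the sums of complex I were 2190 to 2261 and 1951 to 2081 CPM and no longer overlapped, and the log2 ratio for complex IV went from 0.06 to -0.0097. The sums weight abundant genes most, and Atp5b alone gave 1005 of the 2726 CPM of complex V in untreated libraries.

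**Figure D4:**
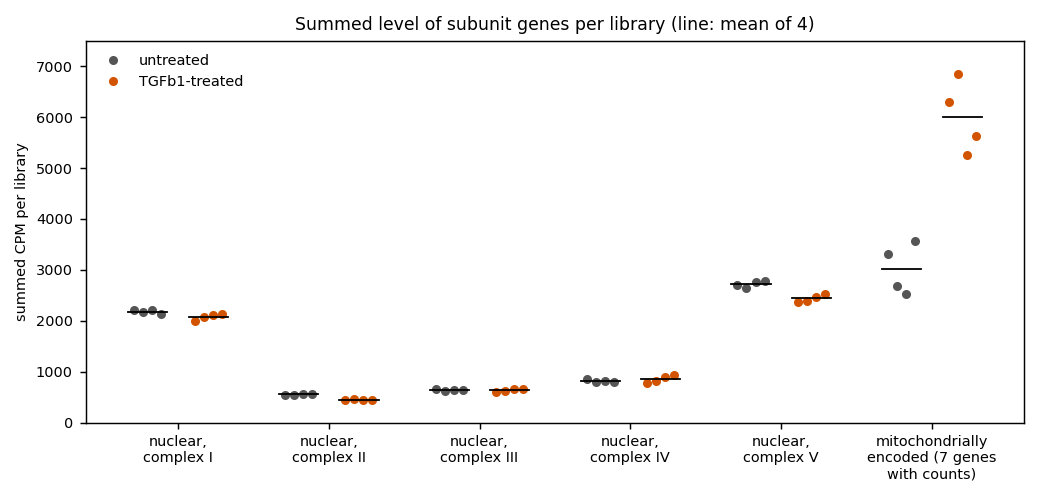
Summed CPM per library (vertical axis from 0) of nuclear subunit genes by complex and of the 7 mitochondrially encoded genes with counts, untreated and TGFβ1-treated, with a line at the mean of 4. Nuclear genes are those of the symbol pattern, so that Cox4i1 is not in the sum of complex IV. The mitochondrial sum is 5254 to 6849 CPM in treated and 2528 to 3567 CPM in untreated libraries.

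Factors that assemble the complexes moved in both directions, as did all genes tested, of which 37.6% were higher and 38.0% lower. The called share was 72.2% for complex I factors, 60.0% for those of complexes II and III and 59.1% for those of complex IV. It was 54.5% for organisers of supercomplexes and cristae, and lower still for ATP synthase assembly and inhibition. All these shares were below the 75.6% of all genes tested. Of 18 complex I assembly factors tested, 5 rose and 8 fell. Nubpl, which delivers iron-sulfur clusters to complex I, was at 12.3, 11.7, 11.8 and 11.6 CPM in untreated and at 3.90, 4.48, 4.72 and 4.50 CPM in treated libraries, the lowest of the list with no overlap (-1.42 ± 0.10). Tmem70, at the other end, rose by 0.32 ± 0.05. Of 10 factors for complexes II and III, 4 rose and 2 fell, with Ttc19 at 0.71 ± 0.05 and Uqcc2 at -0.57 ± 0.06. Of 22 factors for complex IV, 7 rose and 6 fell, from Cox17, the copper chaperone, at 0.83 ± 0.11 to Cmc2 at -0.74 ± 0.06. Of 4 genes for ATP synthase assembly and inhibition, Tmem70 rose and the inhibitor Atpif1 fell by 0.30 ± 0.05 on the log2 scale. Of 11 organisers of supercomplexes and cristae, 2 rose and 4 fell, with Higd2a at 0.45 ± 0.05 and Apool at -0.91 ± 0.08.

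The lists that feed the chain and serve it differed in their counts. Of all genes tested, 75.6% were called (37.6% higher and 38.0% lower). The called share was 69.2% for ubiquinone synthesis, 72.0% for protein import and 87.5% for the carriers and related genes. Of 22 genes of the tricarboxylic acid cycle and pyruvate dehydrogenase tested, 18 fell and 1 rose (86.4% called, median -0.26). Besides enzymes, this list includes the pyruvate dehydrogenase kinases Pdk1 to Pdk4. Idh2, the NADP-dependent isocitrate dehydrogenase, was at 216, 213, 220 and 223 CPM in untreated and at 82.3, 79.9, 85.9 and 84.9 CPM in treated libraries, a change of -1.39 ± 0.04 with no overlap. The gene that rose was Pdk4, a kinase that inhibits pyruvate dehydrogenase, from 0.939 to 1.72 CPM up to 5.47 to 6.05 CPM (2.24 ± 0.16). Of 13 genes of ubiquinone synthesis, 8 fell and 1 rose (median -0.27), from Coq8a at -1.25 ± 0.12 to Coq10b at 0.38 ± 0.05. Of 25 genes of protein import, 12 fell and 6 rose, from Hspa9, the chaperone of the import motor, at -0.89 ± 0.04 to Timm17a at 0.64 ± 0.05. Of 8 carriers and related genes, 4 fell and 3 rose, from Vdac3 at -0.64 ± 0.04 to Ckmt1, mitochondrial creatine kinase, which had 2 to 4 counts in untreated and 214 to 310 counts in treated libraries.

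**Figure D5:**
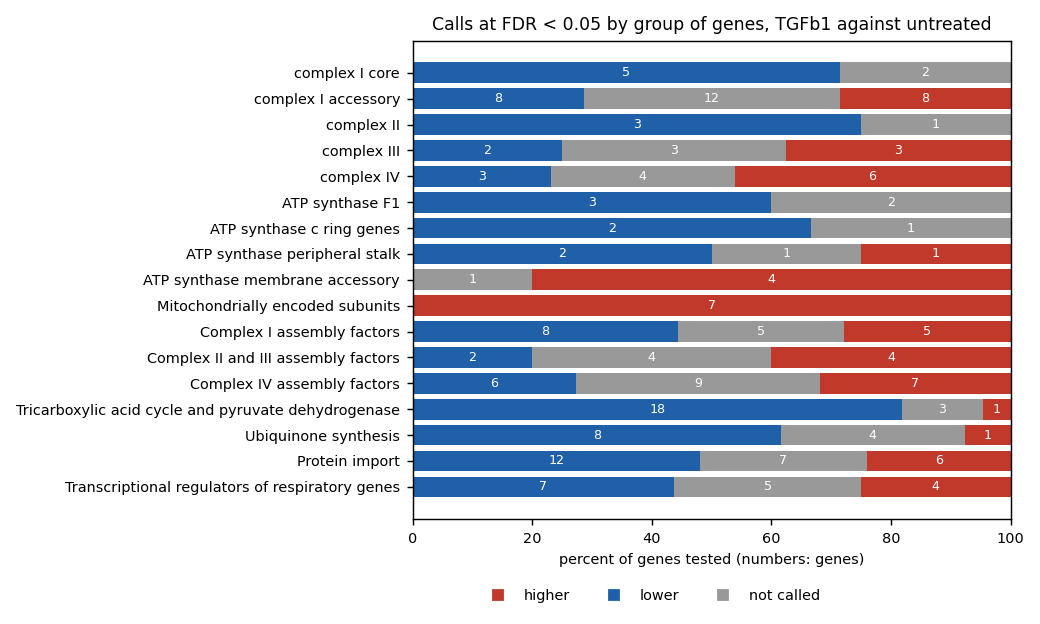
Percent of the genes tested (horizontal axis) in each group of genes that were lower, not called or higher at an FDR under 0.05, with the number of genes written in each bar. 18 of 22 genes of the tricarboxylic acid cycle and pyruvate dehydrogenase group, which includes the kinases Pdk1 to Pdk4, were lower. All 7 mitochondrially encoded genes tested were higher. Over all genes tested, 38.0% were lower and 37.6% higher.

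Of 16 regulators of respiratory genes tested, 4 rose and 7 fell (68.8% called, against 75.6% of all genes tested). Nrf1, the gene of nuclear respiratory factor 1, was at 50.7, 55.6, 54.6 and 47.4 CPM in untreated and at 31.4, 31.0, 32.4 and 31.5 CPM in treated libraries. The groups did not overlap, and the change was -0.72 ± 0.06. Gabpa, of the ETS family, was at 162 to 176 CPM and 102 to 110 CPM (-0.67 ± 0.05), and Esrra, the estrogen-related receptor α, was at 31.2 to 37.1 CPM and 67.1 to 80.7 CPM (1.12 ± 0.07). Ppargc1b, a coactivator, fell by 1.39 ± 0.31 on the log2 scale at 4 to 25 counts in a library, and Ppargc1a had at most 3 counts. Myc rose by 0.33 ± 0.09, and Tfam, which packages and transcribes mitochondrial DNA, did not pass the test (0.00 ± 0.05).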

How the data were processed

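Polyadenylated RNA of 8 SV-LEC samples was sequenced by the study with a stranded kit and single-end reads of 75 bases. Per the labels, reads were handled with bcl2fastq 2.20.0.422, STAR 2.7.3a and featureCounts 1.5.1 on GRCm38, and the authors deposited raw counts per gene for 55471 genes. The annotation release, the strand setting and the treatment of reads with several matches are not given in the sources used here. Where strand was ignored, reads of genes on opposite strands are pooled.

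The test used edgeR 4.0.16 under R 4.3.3: filterByExpr on the groups, TMM, glmFit and glmLRT, with Benjamini-Hochberg FDRs over 13818 genes and a threshold of 0.05, and glmTreat at a fold of 1.2. CPM values use TMM library sizes. The standard error given with a log2 fold change is that change divided by the signed square root of its likelihood ratio statistic. It therefore follows from the same test as the p-value and is not a separate measure of spread. Each sample was assigned by its label. A count of 3 equals 0.113 to 0.162 CPM, and this floor covers counting error only. The fits were tested on simulated data with known changes in a small part of the genes. At an FDR under 0.05, false calls made up 12.0% of the calls of the likelihood ratio test there. That is above the threshold, and the share was 6.36% for the quasi-likelihood test and 8.52% for DESeq2. Such a share depends on how many genes are changed. In these data 75.6% of the genes tested were called, so the simulated shares do not measure the false calls among them. Of 49 genes changed 1.2-fold, the likelihood ratio test called 28.

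Positions, transcript lengths, GC content and 75-base stretches shared with other genes came from GENCODE M21 (GRCm38), which matched 55144 identifiers. Promoters came from RefSeq GRCm38.p6.

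Members and gene lists were chosen with earlier results of these data known. Genes described are the 3 highest and 3 lowest of complexes I, III, IV and V, all of complex II, every member past 1.2-fold, isoform groups, core subunits, and the highest and lowest gene of each list. Other members were named after their values were seen. The values of 1 gene are not reported here, and it stays in the counts. Alternatives were the quasi-likelihood test, DESeq2 1.42.0, median-of-ratios size factors, total counts only, no filter, 1 CPM in 4 libraries, an FDR of 0.01, a fold of 1.5, the replicate block, removal of GC and length trends, and each library left out. A within-group component as covariate was added later.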

Additional observations from a re-analysis of the deposited data

Results flagged for a closer look

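In 7 of 168 groups of 4 libraries, the highest or lowest library stood apart from the other 3 by Dixon's test, which chance gives in about 1 in 20 groups. Sdhc was low in treated replicate 4 (74.95 CPM, against 82.0 to 82.3 in the others). Cox7a1 was high in treated replicate 2 (0.7789 CPM). Atp5l was low in untreated replicate 3 (1.659 CPM). Cox7c was high in untreated replicate 4 (44.37 CPM). Atp5j was low in treated replicate 1 (113.5 CPM). The mitochondrial gene ND6 was low in untreated replicate 3 (6.288 CPM) and in treated replicate 4 (9.936 CPM).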

How the results depend on the processing

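With total counts only, the median log2 fold changes were -0.1088 for all subunit genes, -0.1339 for complex I, -0.3554 for complex II, -0.08248 for complex III, 0.01982 for complex IV and -0.1088 for complex V. The median over all genes tested was then -0.0735, with 33.5% of them higher and 42.7% lower. The share of all genes past 1.2-fold with total counts only is not given here. In that setting 18 genes were past 1.2-fold lower, complex IV had 5 lower and complex V 3 higher genes, and the log2 ratios of summed CPM were -0.135 for complex I, -0.363 for II, -0.0710 for III, -0.00970 for IV (0.0580 with TMM), -0.226 for V and -0.165 for all. Without a filter on low counts the medians were -0.0721 for all and -0.0975 for complex I. With GC content and length trends removed they were 0.0274 for all, 0.00618 for complex I, -0.216 for II, 0.161 for IV and 0.0391 for V, and with the replicate block in addition 0.0237, 0.00703, -0.214, 0.161 and 0.0408, with 1 lower gene in complex III. Cox7b turned to 0.161 in both, and the regulator Mterf3 to 0.00419 and 0.00202. Past a fold of 1.5 were 4 higher and 1 lower genes, and the share of all genes past that fold is not given here. The cause of these shifts was not tested.

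With 1 library left out in turn, medians ranged from -0.0733 to -0.0155 for all subunit genes, -0.0707 to 0.0501 for complex III, 0.00486 to 0.128 for complex IV and -0.0807 to 0.00975 for complex V, and complex IV had 3 to 6 higher genes. Over the 10 alternatives with 8 libraries, 12 of 22 higher and 26 of 28 lower calls were kept in all, and Ndufa11, Ndufa3, Uqcrc1, Uqcrb, Cox5a, Cox5b, Cox6b1, Cox6c, Cox8a, Atp5j and Atp5md lost theirs in 1 or more, while Cox7a1 was removed by the filter of 1 CPM in 4 libraries. Over the 8 left-out libraries, 17 and 27 were kept, and Ndufa11, Cox8a, Cox6b1, Cox5b, Atp5md and Cox5a lost their calls.

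Same-numbered samples correlated at -0.103, -0.0594, -0.0336 and -0.193 in their deviations from the group means, so the numbers were not taken to pair samples. The replicate block left 21 higher and 28 lower subunit genes and lost the call of Cox6b1 (0.11). Of all genes tested, 36.7% were higher and 36.7% lower with that block. Cox7a1 was below 1 CPM in all 8 libraries, where counting error is largest.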
